A study of Sus scrofa with 46 samples.

Results

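This account covers the energy paste in growth-restricted newborn pigs, as read from liver RNA. It takes 23 of the 46 libraries of the series, which are the 13 labelled IUGR with energy treatment and the 10 labelled IUGR with no treatment, chosen by the pig number in the sample labels and by no measured value. IUGR stands for intrauterine growth restriction, judged in this study by eye at birth from the shape of the head and face. The mothers were Danish Landrace and Danish Yorkshire crosses mated to Duroc boars. All piglets of both groups first took colostrum from their own mother, were then moved to nurse sows, and were killed under anaesthesia at 72 hours after birth. Treated piglets were also given Piggy Boost, a commercial oral paste of colostrum, fatty acids and vitamins, while untreated piglets were given none. The other 23 libraries, 12 normal-sized treated and 11 normal-sized untreated, entered the same fit and are set beside the IUGR values where a difference between the sizes was tested.

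The newborn liver has to switch within hours from glucose supplied by the placenta to milk fat, and it takes up gluconeogenesis, fatty acid oxidation and ketone production in doing so. Over the same days it gains much of its adult detoxifying machinery, chiefly the cytochrome P450 enzymes, and loses its role in making red blood cells. Dehydrogenases of the ADH family oxidise alcohols, among them ethanol and the vitamin A alcohol retinol.

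Each column of the deposited count table is headed by a pig number alone. The headings run group by group and are sorted as text within each group. Nothing else in the files shows that each heading belongs to the column below it. The paper reports PDK4 and CEL as significantly higher and CXCL12, SDF2L1 and ENHO as significantly lower in IUGR than in normal livers, by DESeq2. It also reports IGF1 as lower in the sequencing, but not significantly after correction for multiple testing. By qPCR the paper reports a significant change of IGF1, PDK4, CEL and SDF2L1. Between the libraries labelled IUGR untreated and normal untreated, CEL had a log2 fold change of 1.22 ± 0.54 (SE), ENHO of 0.62 ± 0.35, PDK4 of 0.33 ± 0.43, CXCL12 of 0.06 ± 0.19, SDF2L1 of -0.12 ± 0.29 and IGF1 of -0.68 ± 0.44. None was among the 0.0435% of genes called in edgeR (adjusted p 0.331 to 0.929). CEL, PDK4, SDF2L1 and IGF1 had the direction the paper reports, whereas ENHO and CXCL12 had the opposite one. The values of PDK4, SDF2L1 and CXCL12 were smaller than their SE. The significant sequencing differences of the paper were thus not found by edgeR under these headings. DESeq2, which the paper used, was not run on this comparison. Between treated and untreated IUGR libraries DESeq2 on all 4 groups called 23 genes, where edgeR called 4. Whether the headings are right was not tested. Every group below is a group as labelled.

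Total counts per library were 15062165 to 19340218 (median 15642875) in the treated and 15783888 to 17583188 (median 16697893.5) in the untreated IUGR group. All 12 hepatocyte markers of the table were detected, with a summed level of 115000 to 243000 CPM in treated and 119000 to 251000 CPM in untreated libraries, so the tissue label held. CPM is the count scaled to a fixed library total, after TMM adjustment of the totals. The libraries of pigs 39 and 46, labelled treated, and of pig 38, labelled untreated, stood apart, with a median correlation to the other libraries of 0.765 to 0.843, against 0.953 to 0.966 for the other 43. Some results below are given with and without them, some with the levels of these pigs only, and the rest with neither.

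To ask whether the paste altered the liver transcriptome of IUGR piglets, a quasi-likelihood test in edgeR was run on 13780 genes. Only 4 genes, 0.029% of those tested, passed an adjusted p of 0.05, and all 4 were higher in treated libraries. They were ADH4, RTP3, its chromosomal neighbour LRRC2, and LOC100518109, a gene for which the reference gives no name. No gene was called lower. With genes at an unadjusted p under 0.05 termed nominal, 399 genes (2.9%) were nominally higher and 227 (1.65%) nominally lower. Without the libraries of pigs 38, 39 and 46 these counts were 777 (5.64%) and 857 (6.22%), so the excess of higher genes was not kept. In no gene, of all tested, did the treated and untreated groups fail to overlap. The median log2 fold change over all tested genes was 0.0244, and -0.000698 without the 3 pigs, and 57.2% of genes had a positive value over all libraries.

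**Figure D1:**
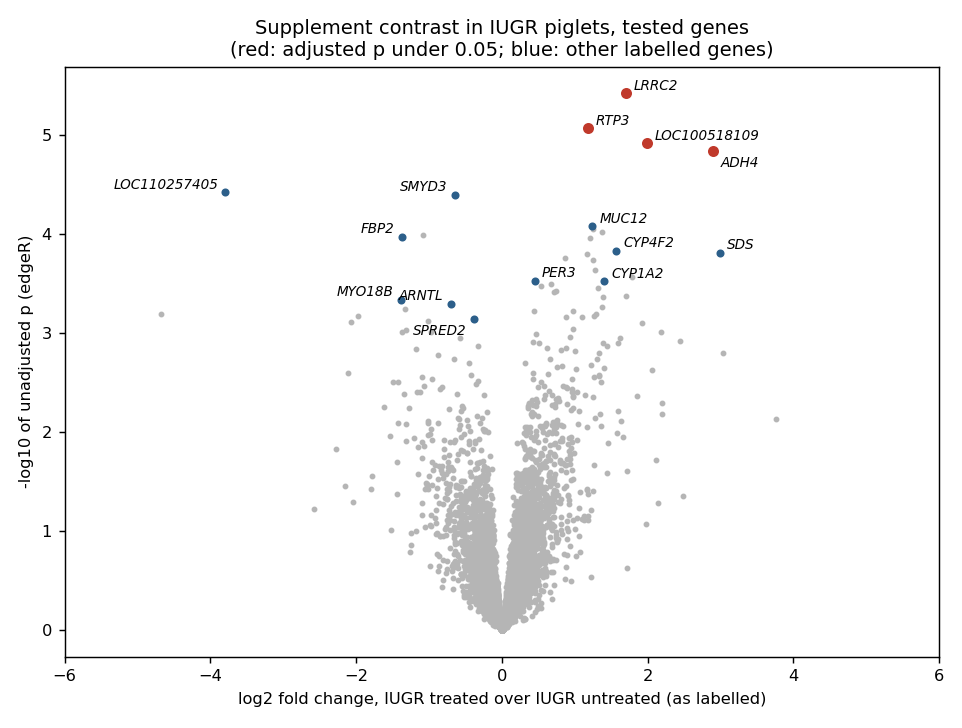
Each point is 1 of the 13780 tested genes, with the log2 fold change of IUGR treated over IUGR untreated libraries on the x axis and -log10 of the unadjusted edgeR p on the y axis. The 4 red points are the genes past the adjusted threshold, all on the right, and the blue points are other labelled genes, which did not pass.

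ADH4, the class II alcohol dehydrogenase, which in humans oxidises retinol and longer alcohols, showed the widest range of the 4 as a ratio of highest to lowest level. In the Sscrofa11.1 build it occupies bases 121225485 to 121259262 of chromosome 8. Its level was lowest at 0.867, in the middle at 9.88 and highest at 51.0 CPM in treated libraries, against 0.474, 1.87 and 8.59 CPM in untreated ones. Of the 13 treated livers, 9 lay above every untreated liver, while pig 29 of the treated group, at 0.867 CPM, lay among the lowest of all. The means were 19.9 ± 18.2 CPM (SD, n = 13) with and 2.66 ± 2.50 CPM (SD, n = 10) without the paste, a log2 fold change of 2.90 ± 0.60 (SE, its standard error, adjusted p = 0.04998, edgeR).

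RTP3 encodes a receptor transporter protein, of a family that helps chemosensory receptors reach the cell surface. It lies on chromosome 13 from 29471568 to 29476277. In treated libraries it ranged from 28.05 over a median of 40.8 to 77.3 CPM, against 10.4, 18.9 and 29.8 CPM in untreated ones. Overlap came from pigs 46 and 47, since the other 11 treated livers exceeded every untreated one. The means of 42.9 ± 14.8 CPM (SD, n = 13) with and 18.9 ± 6.67 CPM (SD, n = 10) without the paste gave a log2 fold change of 1.18 ± 0.24 (SE, adjusted p = 0.04998, edgeR).

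LRRC2, a leucine-rich repeat gene, is the next gene on the chromosome, from 29477790 to 29524177. It was barely expressed, with 12 to 61 counts per library in the treated and 5 to 16 in the untreated group. Its level was 0.655, 1.84 and 3.90 CPM (lowest, median, highest) with the paste and 0.311, 0.599 and 1.08 CPM without it. Again 11 of 13 treated livers lay above all untreated ones, here with pigs 46 and 18 as the exceptions. The log2 fold change was 1.70 ± 0.33 (SE, adjusted p = 0.04998, edgeR).

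LOC100518109, on chromosome 2 from 12365082 to 12384741, was the most highly counted of the 4. Treated libraries held 41.7, 90.3 and 182 CPM (lowest, median, highest), and untreated libraries 9.11, 17.2 and 57.5 CPM. In the untreated group, pigs 17 and 36, at 57.5 and 55.6 CPM, lay within the treated range, and the other 8 untreated livers were below every treated one. The means of 97.3 ± 47.3 CPM (SD, n = 13) with and 24.5 ± 17.8 CPM (SD, n = 10) without the paste gave a log2 fold change of 1.99 ± 0.41 (SE, adjusted p = 0.04998, edgeR). All 4 genes share one adjusted p because the Benjamini-Hochberg step gives each the value of the last of them.

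**Figure D2:**
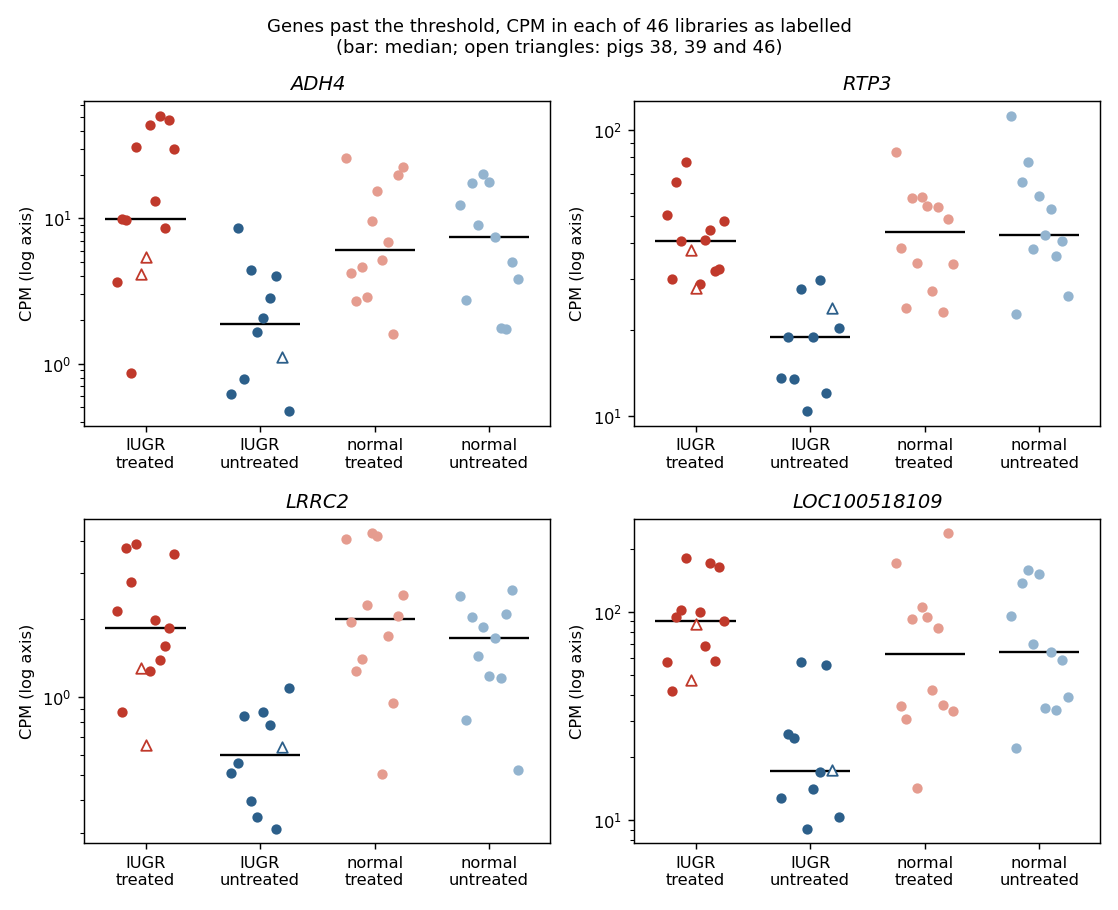
Level of each of the 4 genes in every library of the series, in CPM on a log axis, with IUGR treated, IUGR untreated, normal-sized treated and normal-sized untreated libraries from left to right, bars at the medians and open triangles for pigs 38, 39 and 46. For RTP3 the median is 40.8 CPM in IUGR treated and 18.9 CPM in IUGR untreated livers, and 43.7 and 42.9 CPM in normal-sized treated and untreated livers.

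The 4 calls sat at the edge of the threshold. When each library was omitted in turn, between 0 and 6 genes were called. It was 0 without pig 11, 25, 33, 49, 59 or 65 of the treated group, and 0 without pig 5, 12, 21, 26, 36 or 38 of the untreated group. It was 1 without pig 53 (treated), 10 or 43 (untreated), and 2 without pigs 46 or 47 (treated), 17 or 27 (untreated). Without pigs 18 or 58 it was 4, without pig 39 it was 5, and without pig 29 it was 6. The sizes moved little over these 23 fits, with a log2 fold change of 2.70 to 3.31 for ADH4, 1.08 to 1.28 for RTP3, 1.59 to 1.82 for LRRC2 and 1.88 to 2.22 for LOC100518109. Adjusted p reached 0.15 for each of them, and LRRC2 passed in 9 of the 23 fits, RTP3 in 8, and ADH4 and LOC100518109 in 5 each.

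**Figure D3:**
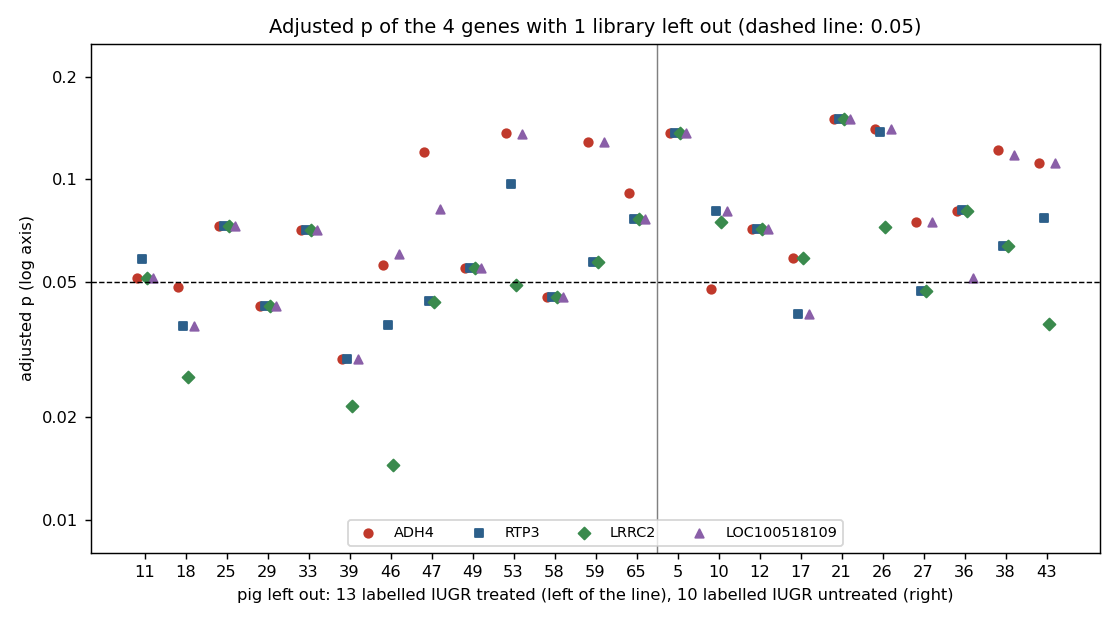
Adjusted p (log axis) of the 4 genes when the library of the pig named on the x axis is left out, treated pigs on the left and untreated pigs on the right of the grey line. Points below the dashed line at 0.05 pass, and no gene stays below it throughout, with adjusted p reaching 0.15.

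In other fits DESeq2 called 23 genes, 17 higher and 6 lower, on all 4 groups, and these included the 4. Beyond them, its higher genes with adjusted p under 0.05 included SDS, MUC12, CYP4F2, METTL7B, CYP1A2, CYP2C49 and CD3E. Its 6 lower genes were LOC100522267, LOC110256649, LOC110257405, SMYD3, FBP2 and LOC110256296. Among IUGR livers LOC110256649 reached 909 to 1367 CPM in untreated pigs 27, 36 and 43 only. With DESeq2's size factors in edgeR, or with the level of EIF1AY, a Y-linked gene, as a covariate, 0 genes passed, and 633 and 630 were nominal. Without pigs 38, 39 and 46, 9 genes (0.0653%) passed, 8 of them higher. These held ADH4, RTP3 and LRRC2, while LOC100518109 had an adjusted p of 0.0589.

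In normal-sized piglets the same 4 genes had log2 fold changes near 0 or small, at 0.16 for ADH4, -0.22 for RTP3, 0.47 for LRRC2 and 0.05 for LOC100518109. In the difference of the IUGR contrast from the normal-sized contrast, RTP3 stood at 1.40 (adjusted p = 0.196), ADH4 at 2.74 (0.303), LOC100518109 at 1.94 (0.301) and LRRC2 at 1.23 (0.520), all from edgeR. The response was thus not shown to differ by size for any of them. Over all genes the difference gave 0 calls in edgeR and 8 in DESeq2, and 918 genes (6.66%) were nominal in edgeR. The normal-sized contrast itself gave 0 calls in edgeR and 31 in DESeq2, and 1176 genes (8.53%) were nominal in edgeR.

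RTP3 and LRRC2 varied together among the treated livers. Over these 13 libraries log2 levels of LRRC2 and RTP3 had a Pearson's r of 0.838 (permutation p = 0.00035) and a Spearman's rho of 0.879 (permutation p = 0.00023), two-sided, with adjusted values of 0.0042 and 0.00276 over the 12 relations computed. Dropping the 2 livers most distant from the LRRC2 median left r at 0.774, and dropping pigs 39 and 46 left it at 0.827. Over the 10 untreated livers r was 0.407 (permutation p = 0.239), where LRRC2 had only 5 to 16 counts per library. Whether r differed between these groups was not tested, and r was not computed in normal-sized piglets. The relation is thus not shown to be particular to treated livers. No other pair of the 4 genes passed after adjustment in either group. The nearest was ADH4 with LOC100518109, at r = 0.545 (permutation p = 0.0536, adjusted 0.237) in the treated and 0.618 (permutation p = 0.0592, adjusted 0.237) in the untreated group.

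The further neighbours of this pair did not pass the threshold. LTF, the lactoferrin gene on the other side of RTP3, had a log2 fold change of -0.29, and CCRL2, an atypical chemokine receptor gene, one of -0.31 (unadjusted p = 0.0329). Beside ADH4, ADH1C, a class I alcohol dehydrogenase, had a log2 fold change of 0.73 ± 0.25 (SE, unadjusted p = 0.00516, adjusted p = 0.544, edgeR). ADH5, the formaldehyde-clearing class III enzyme on its other side, stood at -0.02. Reads shared between these related genes, or with C8H4orf17, whose annotated span covers both ADH1C and ADH4, could not be separated here, since the counting program and its use of strand are not given in the sources used here. Of the 8 tested genes among the 10 nearest to LOC100518109, none was nominal.

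Next in order came genes that were higher in most treated livers without passing the threshold. SDS, serine dehydratase, which turns serine into pyruvate for gluconeogenesis, held 1.09, 13.4 and 155 CPM (lowest, median, highest) in treated and 1.57, 2.83 and 9.48 CPM in untreated livers. Of the treated livers, 11 of 13 lay above every untreated one, and only pigs 33 and 47 did not. The log2 fold change of SDS was 2.99 ± 0.73 (SE, adjusted p = 0.147, edgeR) and 2.44 without pigs 38, 39 and 46. In normal-sized piglets SDS stood at 2.10 (unadjusted p = 0.00304), and the difference between the sizes had an unadjusted p of 0.337.

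CYP4F2, a fatty acid and vitamin E hydroxylase in humans, held 2.10, 4.81 and 12.0 CPM in treated and 0.573, 1.67 and 2.86 CPM in untreated livers. Here too 11 of 13 treated livers exceeded all untreated ones (log2 fold change 1.57 ± 0.38 SE, adjusted p = 0.147, edgeR). METTL7B, a methyltransferase gene, had a log2 fold change of 1.79 (adjusted p = 0.197), and MUC12, a membrane mucin gene, one of 1.23 (adjusted p = 0.125). SMPDL3B, a lipid-modulating phosphodiesterase gene of the cell surface, stood at 0.86. Its highest levels were in pigs 39 and 46, at 100 and 110 CPM, and the next treated liver held 78.0 CPM. The dynein chain gene DYNC1I1 stood at 1.17 and the protein kinase C gene PRKCQ at 1.25. PRKCQ was barely expressed, at 0.248 to 1.52 CPM in treated and 0.102 to 0.606 CPM in untreated livers.

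Among lower genes, LOC110257405 and SMYD3 came closest to the threshold. SMYD3 is a histone and protein methyltransferase gene. Its level was 1.27, 1.91 and 3.41 CPM in treated and 2.79, 3.20 and 3.66 CPM in untreated livers, and 12 of 13 treated livers were below every untreated one. Pig 39, one of the libraries that stood apart, was the exception. The log2 fold change of SMYD3 was -0.65 ± 0.14 (SE, adjusted p = 0.0928, edgeR). Without pigs 38, 39 and 46 it was -0.74 and passed. LOC110257405 was at or near zero in most livers, at 0 to 0.135 CPM in treated and 0 to 1.77 CPM in untreated livers (log2 fold change -3.80, adjusted p = 0.0928).

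FBP2, the muscle form of fructose-1,6-bisphosphatase, held 0.332, 0.823 and 1.98 CPM in treated and 0.559, 2.22 and 6.03 CPM in untreated livers (log2 fold change -1.37 ± 0.32 SE, adjusted p = 0.125, edgeR). SPRED2, an inhibitor of Ras signalling, stood at -0.39, with 9 of 13 treated livers below all untreated ones. Other values low in the ranking rested on few animals. LOC110256649 (log2 fold change -4.68) was at 909 to 1367 CPM in pigs 27, 36 and 43 of the untreated group and at 11.0 CPM or less in the other 7, with 3.32 to 47.6 CPM in treated livers. TPPP stood at -1.33 and at -0.51 without pig 21, and LOC100155138 at -1.98 and at -0.16 without pigs 38, 39 and 46.

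Of the pathway lists, cytochrome P450 and xenobiotic sensing genes gave the highest median. These enzymes oxidise drugs, steroids and dietary compounds, and NR1I3 (the nuclear receptor CAR) switches several of them on. Of 30 genes listed, 24 passed the filter on low counts, and 23 of these had a positive log2 fold change. Their median was 0.505, beside 0.0244 over all tested genes. Nominally, 10 were higher and 0 lower, where 2.9% of all tested genes were higher and 1.65% lower. None passed the adjusted threshold in edgeR.

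CYP1A2, which metabolises caffeine and oestrogens in humans, held 14.2, 28.6 and 54.8 CPM (lowest, median, highest) in treated and 3.89, 9.09 and 29.3 CPM in untreated livers. Its log2 fold change was 1.41 ± 0.36 (SE, adjusted p = 0.197, edgeR). CYP2C49 held 132, 266 and 472 CPM in treated and 16.1, 98.5 and 274 CPM in untreated livers, a log2 fold change of 1.32 ± 0.34 (SE, adjusted p = 0.203, edgeR). The groups overlapped for both, with 6 of 13 treated livers above all untreated ones for CYP1A2 and 5 of 13 for CYP2C49.

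CYP2C36 stood at 1.44 ± 0.42 (SE) and the receptor gene NR1I3 at 1.02 ± 0.32 (SE). CYP1A1, named here after its value was seen, stood at 1.33, CYP3A46 at 0.83, CYP2D25 at 0.77 and CYP2E1, the ethanol-inducible enzyme, at 0.50. Members of the CYP2C family are close copies of each other, and how reads were divided among them is not given, so their separate values are uncertain.

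The P450 list was not carried by the libraries that stood apart. Its mean log2 level per library was 5.72 to 6.80 (median 6.46) in treated and 5.35 to 6.38 (median 5.92) in untreated livers, with pig 39 lowest of the treated and pig 38 lowest of the untreated group. Without pigs 38, 39 and 46 the median log2 fold change was 0.490. In that fit 11 members were nominally higher and 0 lower, where 5.64% of all genes were higher and 6.22% lower. In normal-sized piglets the median of the list was 0.000823. In the difference between the sizes 8 of its members were nominally higher, where 4.44% of all tested genes were, and none passed after adjustment.

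**Figure D4:**
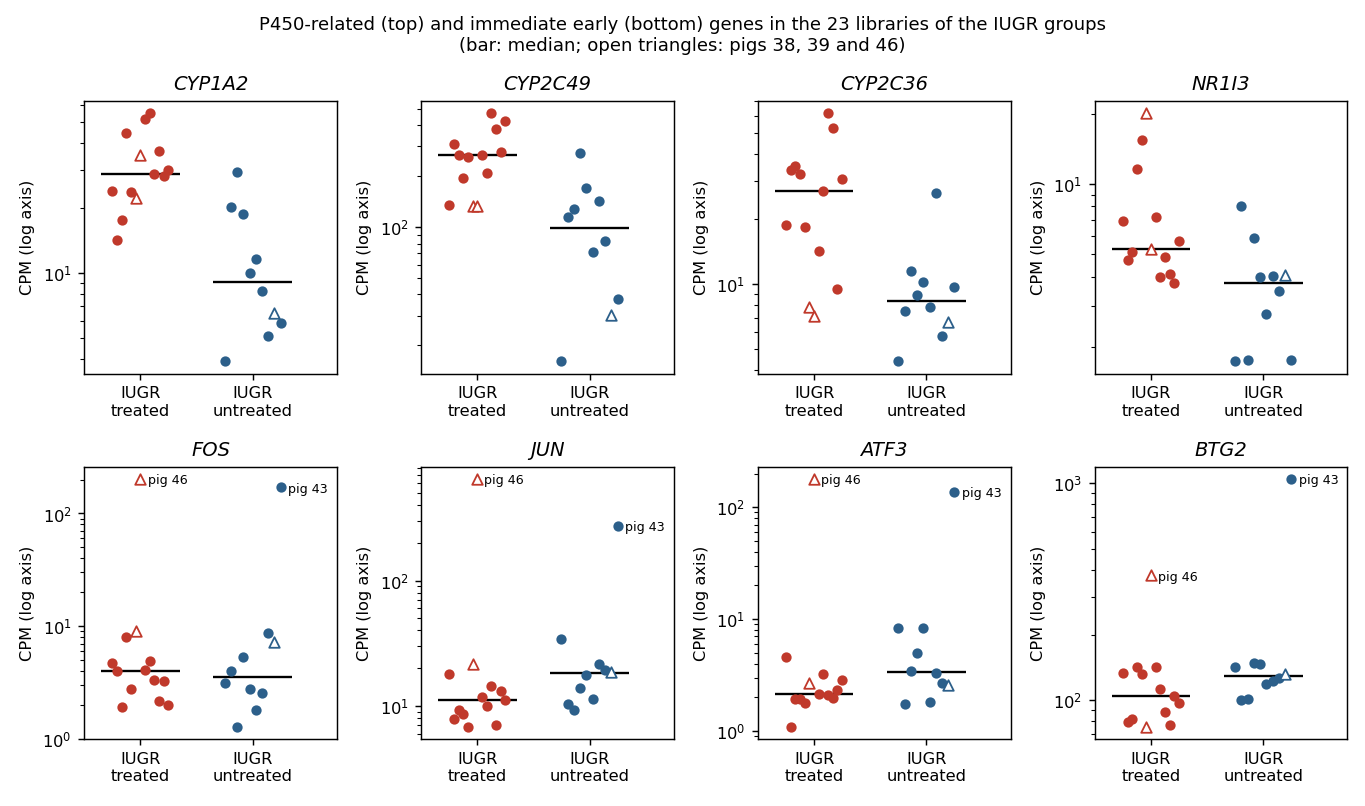
Level in CPM (log axis) of 4 cytochrome P450 and xenobiotic sensing genes (top) and 4 immediate early genes (bottom) in the 13 treated (left, red) and 10 untreated (right, blue) IUGR livers, with bars at the medians and open triangles for pigs 38, 39 and 46. CYP1A2 has medians of 28.6 and 9.09 CPM in treated and untreated livers, while FOS is at 202 CPM in treated pig 46 and 171 CPM in untreated pig 43, apart from all others.

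Genes of retinoid and alcohol handling gave little beyond ADH4. Of 28 tested genes 23 had a positive value, with a median of 0.107. Beside 2.9% of all tested genes nominally higher and 1.65% lower, 3 of the list were nominally higher and 0 lower. These were ADH4, ADH1C and RBP4, the plasma carrier of retinol (log2 fold change 0.32 ± 0.13 SE). RBP4 held 2141, 2993 and 4813 CPM in treated and 1575, 2539 and 3285 CPM in untreated livers, with wide overlap. The 12 tested genes of vitamins D, E and K had a median of 0.0283, and none was nominal.

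Lipid genes had medians of small size. Of 29 tested genes of fatty acid and triglyceride synthesis, 24 were positive (median 0.205), beside 57.2% of all tested genes. Nominally 5 were higher and 0 lower, where 2.9% of all genes were higher and 1.65% lower. DGAT2, which adds the last acyl chain of triglyceride, held 39.6, 64.0 and 166 CPM in treated and 25.0, 45.9 and 91.6 CPM in untreated livers (log2 fold change 0.58 ± 0.19 SE, adjusted p = 0.476, edgeR). LPIN2 stood at 0.57, the desaturase gene FADS1 at 0.54, the carboxylase gene ACACB at 0.81 and SREBF1, the transcription factor of lipogenesis, at 0.69. ACACB was barely expressed, at 0.380 to 1.96 CPM in treated and 0.0618 to 1.21 CPM in untreated livers. The median of this list was 0.104 without pigs 38, 39 and 46.

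Of 45 tested genes of fatty acid oxidation and ketone bodies, 35 were positive (median 0.142), yet only CPT2, the inner carnitine palmitoyltransferase, was nominally higher (0.47 ± 0.22 SE), a share no larger than that over all genes. Without pigs 38, 39 and 46 the list held 8 nominally higher and 1 nominally lower member, and 5.64% of all genes were higher in that fit. Cholesterol synthesis, with 28 tested genes, had a median of -0.0129 and no nominal gene. Bile acid genes had a median of 0.0782 over 25 tested members. In that list SLC27A5 (0.54), AKR1C1 (0.70) and SLC27A2 (0.70) were nominally higher, where 2.9% of all tested genes were. For SLC27A5 treated pigs 39 and 46 held 205.3 and 272.5 CPM, and untreated pig 38 held 178.8 CPM.

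Amino acid catabolism had 37 of 41 tested genes positive and a median of 0.186. Nominally, 5 were higher and 1 lower, beside 2.9% and 1.65% of all tested genes, of which 57.2% were positive. Besides SDS these included GNMT, which consumes S-adenosylmethionine (0.72 ± 0.26 SE), KMO of tryptophan breakdown (0.47 ± 0.18 SE) and, on the lower side, the mitochondrial transaminase gene GOT2 (-0.24 ± 0.12 SE). GNMT held 57.7, 80.9 and 155 CPM in treated and 18.4, 54.0 and 120 CPM in untreated livers. The groups overlapped, and its adjusted p was 0.641 in edgeR.

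In sugar metabolism 2 of 38 tested genes were nominally higher and 2 lower, beside 2.9% and 1.65% of all tested genes. Of the 38, 30 were positive, with a median of 0.0638. Only 17 were positive without pigs 38, 39 and 46, and the median was -0.0131. KHK, the first enzyme of fructose breakdown, stood at 0.88 ± 0.28 (SE) and the phosphofructokinase gene PFKM at 0.29, whereas FBP2 was on the lower side. Pigs 39 and 46 held 10.7 and 17.2 CPM of KHK, and the next highest treated liver 6.92 CPM. The Krebs cycle list had a median of 0.0694 over 33 tested genes, with PDK2, a pyruvate dehydrogenase kinase, at 0.51 ± 0.22 (SE). Of this kinase gene, pigs 39 and 46 held 128 and 118 CPM, and the next highest treated liver 77.1 CPM. PDK4, the fasting-induced kinase of that family, held 38.6, 137 and 438 CPM in treated and 35.6, 142 and 372 CPM in untreated livers, a log2 fold change of 0.03 ± 0.42 (SE). The respiratory chain list stood at 0.0289 over 35 tested genes, none of them nominal.

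None of the 31 tested genes of the insulin, IGF and growth hormone axis was nominal, and their median was -0.000576. IGF1, the main growth factor that growth hormone induces in liver, held 1.69, 7.97 and 29.9 CPM in treated and 0.816, 7.86 and 12.1 CPM in untreated livers (log2 fold change 0.22 ± 0.42 SE). The 45 tested cell cycle genes had a median of 0.112, with 40 positive and none nominal. In normal-sized piglets the median of that list was -0.620, with 26 members nominally lower, where 5.45% of all genes were. In the difference between the sizes 25 of its members were nominally higher, where 4.44% of all tested genes were, and none passed after adjustment.

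Genes of the circadian clock had values in both directions. Of 28 tested genes of the glucocorticoid and clock list, 5 were nominally higher and 3 lower, beside 2.9% and 1.65% of all tested genes, with a median of 0.183. PER3, a repressor arm gene, had a median of 18.2 and a highest value of 23.9 CPM in treated livers, against 13.1 and 18.1 CPM in untreated ones (log2 fold change 0.45 ± 0.12 SE, adjusted p = 0.197, edgeR). ARNTL (BMAL1), the activator arm gene that NR1D1 represses, held 7.86, 16.2 and 29.8 CPM in treated and 18.7, 27.4 and 35.4 CPM in untreated livers, with 8 of 13 treated livers below all untreated ones (log2 fold change -0.70 ± 0.19 SE, adjusted p = 0.232, edgeR). NR1D1 (REV-ERB alpha) stood at 0.82, CIART at 0.38 and the repressor gene CRY1 at -0.35. The hour of sampling is not in the labels, so its part in these values was not tested. All 3 of PER3, ARNTL and NR1D1 kept their direction without pigs 38, 39 and 46, at 0.46, -0.70 and 0.87.

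Immediate early genes, which rise within minutes of stress or handling, depended on 1 library in each group. FOS held 1.91, 3.99 and 202 CPM (lowest, median, highest) in treated and 1.27, 3.57 and 171 CPM in untreated livers. The high values belong to pig 46 (treated) and pig 43 (untreated), and the next highest were 8.98 and 8.64 CPM. The log2 fold change of FOS was -0.09 over all libraries, -2.30 without pig 46 and 2.25 without pig 43. ATF3 behaved alike, at -0.13, -2.88 and 1.95, and JUN at 0.49, -1.89 and 1.80. FOS, ATF3 and JUN were named after their values were seen. Over the 27 tested genes of the list the median was -0.0458, and it was -0.65 without pig 46 and 0.598 without pig 43. Without pigs 38, 39 and 46, 17 members were nominally lower, where 6.22% of all genes were. The direction of this list is therefore not given.

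**Figure D5:**
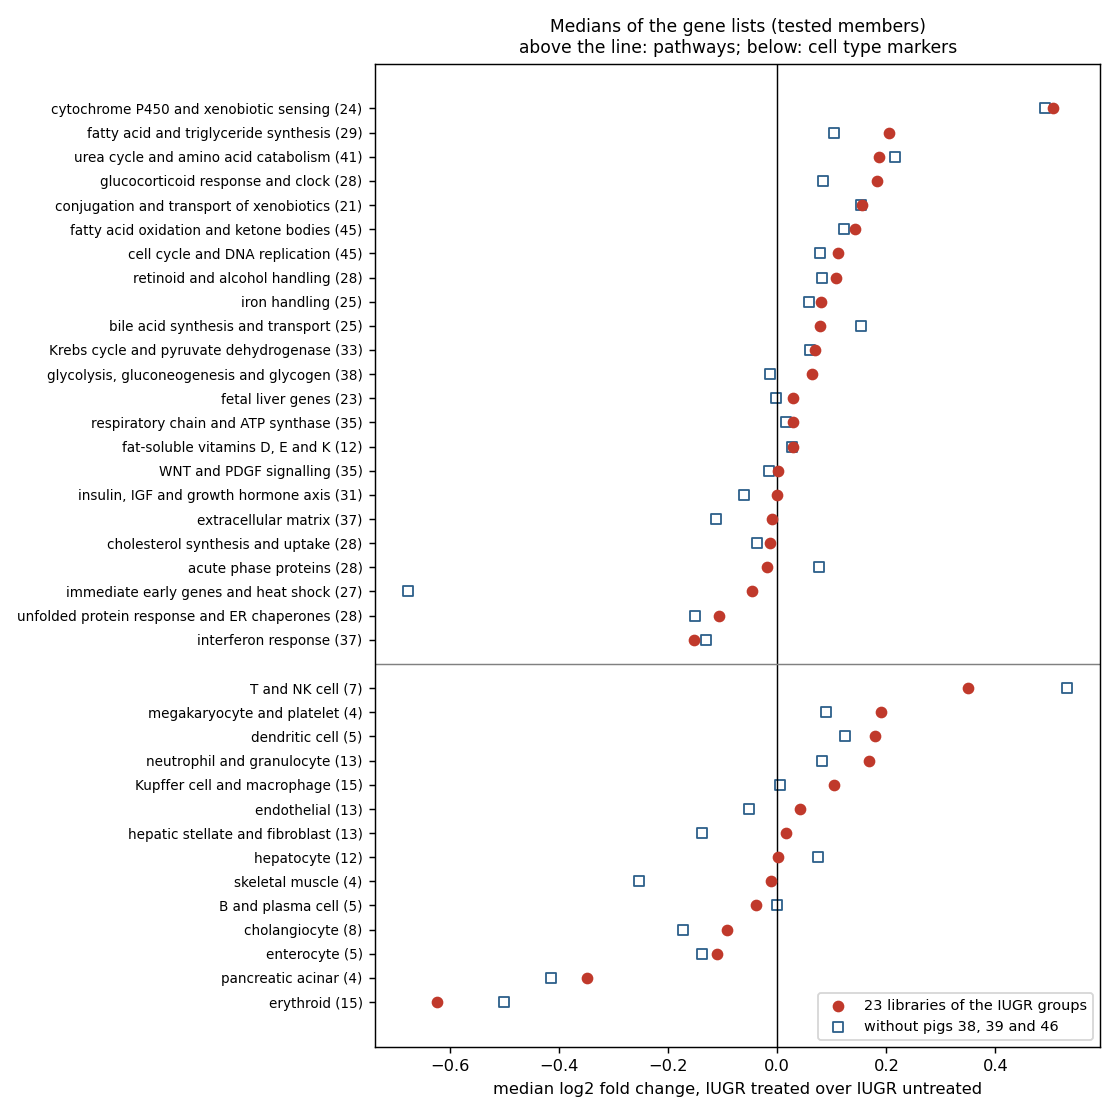
Median log2 fold change of IUGR treated over IUGR untreated livers for each gene list, with the number of tested members in brackets, from all 23 libraries (red circles) and without pigs 38, 39 and 46 (open blue squares). The cytochrome P450 list is at 0.505 and 0.490, and the immediate early list shifts between -0.0458 and -0.676.

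Iron and defence genes gave single values only. HAMP, which encodes the iron hormone hepcidin, had a log2 fold change of 2.48 ± 1.20 (SE, unadjusted p = 0.0440, adjusted p = 0.9998, edgeR). It rested on pig 59 of the treated group, at 176 CPM, since the median was 0.568 CPM in treated and 1.19 CPM in untreated livers, and without pig 59 the value was 0.23. IFI6, an interferon-induced gene, held 21.6, 368 and 1135 CPM in treated and 21.5, 43.6 and 285 CPM in untreated livers (log2 fold change 1.86 ± 0.62 SE, adjusted p = 0.507, edgeR). The interferon list as a whole did not follow it, with 24 of 37 tested members negative and a median of -0.152. Among acute phase genes, 28 tested, SERPINA1 (alpha-1-antitrypsin) stood at -0.59 ± 0.22 (SE) and the median of the list was -0.0188.

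For the remaining pathway lists the nominal counts are set beside 2.9% of all tested genes higher and 1.65% lower. Conjugation and transport of xenobiotics had a median of 0.156 over 21 tested genes, 16 of them positive, with the methyltransferase gene TPMT higher (0.81) and ABCC4 lower (-0.40), both nominally. Iron handling stood at 0.0807 over 25 tested genes, with 2 nominally higher and 1 lower. Fetal liver genes stood at 0.0294 over 23, with 2 nominally higher and 0 lower. WNT and PDGF signalling stood at 0.00236 over 35 and extracellular matrix at -0.00921 over 37. Each of these last lists had 1 gene nominally higher and 1 lower. The unfolded protein response and chaperones of the endoplasmic reticulum stood at -0.107, with 20 of 28 tested genes negative and none nominal. In these lists SFRP1, a secreted WNT inhibitor, had the smallest p, with 12.6, 22.0 and 35.2 CPM in treated and 7.18, 12.4 and 27.5 CPM in untreated livers (log2 fold change 0.71 ± 0.19 SE, adjusted p = 0.205, edgeR). LAMB1, a laminin chain of basement membrane, stood at -0.34 ± 0.12 (SE).

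Markers of other cells were read beside these lists. Erythroid markers had a median of -0.623 over 15 tested genes, with 0 nominally higher and 4 nominally lower (among them EPB42, SPTB and SLC4A1, at -0.94 to -1.04), where 1.65% of all tested genes were lower. Without pigs 38, 39 and 46 the median was -0.500 and none was nominal, where 6.22% of all genes were lower. The summed erythroid level was 406 to 3140 CPM (median 1100) in treated and 722 to 2810 CPM (median 1070) in untreated livers, so the groups overlapped over most of the range. In bulk tissue, fewer cells of a type and less RNA per cell cannot be told apart. Of 7 tested T and NK cell markers, the T cell receptor subunit gene CD3E (1.24), the kinase gene LCK (0.75) and CD2 (0.77) were nominally higher, where 2.9% of all tested genes were. CD3E held 0.124, 0.947 and 2.87 CPM in treated and 0.247, 0.436 and 0.745 CPM in untreated livers, with 10 of 13 treated livers above and 2 below all untreated ones (adjusted p = 0.147, edgeR). The summed T and NK level was 14.7 to 50.6 CPM in treated and 17.2 to 34.7 CPM in untreated livers.

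The 12 tested hepatocyte markers had a median of 0.00221, and the summed levels of hepatocyte, macrophage and endothelial markers overlapped between the groups. Kupffer cell and macrophage markers summed to 1580 to 3100 CPM in treated and 1430 to 2350 CPM in untreated livers, with pigs 39 and 46 at 2930 and 3100 CPM. The part of these marker levels in the results above was not tested.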

How the data were processed

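Liver RNA of 46 piglets was sequenced by the authors as paired-end reads of 100 bp, and Bowtie2 (v2.2.5) placed the clean reads on the Sscrofa11.1 genome. The authors deposited estimated counts per gene, not normalized for depth or length. Of these values 85.9% are whole numbers, and no source used here names the counting program. The labels name DESeq2 without a version.

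Groups came from the labels by pig number. No column without a sample was found (0 columns). All 18440 genes matched the RefSeq annotation of Sscrofa11.1 by identifier, 18240 with the same symbol. Among 1035 pairs of libraries none was alike within sampling noise. Nothing in the labels gives litter, sex or sampling week. The study took treated and untreated littermates, so p-values assume an independence that could not be checked. At the depth of these libraries, genes of low count carry relatively more counting error, such as LRRC2 with 5 to 61 counts per IUGR library.

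Rounded counts were tested in edgeR 4.0.16 (R 4.3.3), with TMM, filterByExpr over 4 groups at a minimum count of 10, a robust quasi-likelihood fit of all 46 libraries with a mean per group, and Benjamini-Hochberg adjustment at 0.05. Standard errors were derived from the F statistic. Levels of the libraries are CPM. Correlations used log2 CPM (prior count 2) and 100000 permutations. The code was tested on simulated data.

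Named genes are all those past the threshold, the 15 genes of smallest p in either direction and the 4 members of each list with the smallest p. To these were added genes the paper names. ADH4, RTP3, LRRC2 and LOC100518109, the 4 genes past the threshold, were already known from an earlier analysis of these data. List members and neighbours outside this rule, such as CYP1A1, CYP2D25, CYP2E1, CRY1, SREBF1, FOS, ATF3 and JUN, were added after their values were seen. The 23 pathway and 15 marker lists, the members and the rule were all chosen with earlier results of these data known. Adrenal cortex markers had only 1 tested gene. Some list members and neighbours counted in the text are not reported here by name.

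Alternatives were DESeq2 1.42.0 on all groups or the IUGR groups, edgeR with DESeq2's size factors, without the low-count filter or with the IUGR groups alone, limma voom (3.58.1) with quality weights, EIF1AY or surrogate variables (sva 3.50.0) as covariates, leaving out pigs 38, 39 and 46, and leaving out each IUGR library in turn.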

Additional observations from a re-analysis of the deposited data

Results flagged for a closer look

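In the untreated IUGR group of 10 libraries, 83 values were screened for a single library far from the rest, by its gap to the nearest library over the group's range (above Dixon's critical value). This picked out 17 values. Chance picks about 1 in 20 values of genes chosen without regard to single libraries, and that rate does not apply here, since some of these genes (FOS, ATF3 and JUN) were named after their values were seen and others (LOC100155138 and TPPP) rest on few animals. Pig 38 gave 5 of the 17 values, being highest for LOC100155138 (16 CPM), DGAT2 (91.6 CPM), CPT2 (215 CPM) and SLC27A5 (179 CPM) and lowest in median correlation to the other libraries (0.843). Pig 43 gave another 5, the immediate early genes BTG2 (1048 CPM), MYC (208 CPM), FOS (171 CPM), ATF3 (138 CPM) and JUN (275 CPM). Pig 27 was highest for DYNC1I1 (4.03 CPM), CYP2C36 (26.4 CPM) and SFRP1 (27.5 CPM). Pig 21 was highest for TPPP (8.53 CPM), pig 10 for ADH4 (8.59 CPM), pig 36 for TMEM121 (5.16 CPM), and pig 5 was lowest for RBP4 (1575 CPM). The treated group, with 13 libraries, was not screened.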

How the results depend on the processing

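In IUGR piglets, against 4 genes in the test reported, DESeq2 called 23 genes on all groups and 23 on the IUGR groups alone. Limma voom called 117 (58 higher, 59 lower), the fit with 8 surrogate variables 199 (68 higher, 131 lower), the fit without pigs 38, 39 and 46 called 9, and DESeq2's size factors or EIF1AY in edgeR gave 0. With no filter, and with the IUGR groups alone, edgeR called 4 in each fit, but not the same 4. ADH4 did not pass in either (adjusted p 0.0654 and 0.149, edgeR), and LOC100522267 and DYNC1I1 respectively passed instead. In limma voom ADH4 had an adjusted p of 0.0645. Leave-one-out fits aside, ADH4 passed in 4 of the 9 other settings. Leaving out 1 library at a time gave 0 to 6. In normal-sized piglets, against 0, DESeq2 called 31, limma voom 783, surrogate variables 2 and the fit without the 3 pigs 105. For the difference between the sizes, against 0, DESeq2 called 8, no filter 1, limma voom 3, surrogate variables 1 and the fit without the 3 pigs 1. Leaving out 1 IUGR library kept both counts at 0. None of ADH4, RTP3, LRRC2 and LOC100518109 changed direction in any of these fits. Where a count moved, the cause was not tested.

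Direction turned for genes far from the threshold. With DESeq2 on all groups and on the IUGR groups BTG2 was 0.0020 and 0.0063, FOS 0.0395 and 0.0398, and JUN -0.54 and -0.53. JUN was also -0.90 in limma voom, -0.0211 with EIF1AY, -0.92 with surrogate variables and -2.11 without the 3 pigs. ENHO was -0.30 in limma voom, -0.0148 with surrogate variables and -0.30 without the 3 pigs, and with surrogate variables HAMP was -0.31 and PDK4 -0.26. With 1 library left out at a time FOS ran from -2.30 to 2.25, ATF3 from -2.88 to 1.95, JUN from -1.89 to 1.80, PDK4 from -0.17 to 0.25, ENHO from -0.21 to 0.22, IGF1 from -0.11 to 0.32, SDF2L1 from -0.26 to 0.0402 and LRRC30 from -0.82 to 0.0497. No paired analysis was possible because the study's littermates cannot be matched, as the labels give no litter. At these depths LRRC2, with 5 to 61 counts, is the least precisely counted of the 4 genes.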
